A study of Mus musculus with 15 samples.

Results

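The genes described here are those of respiratory complex I, taken as every row of the deposited count table whose symbol begins with Nduf. The rule found 43 of 37991 rows, and 41 of them passed the expression filter that left 12188 genes for testing. RNA of whole inguinal white fat, a depot under the skin, was sequenced from C57BL/6 mice aged 8 weeks as 15 libraries, with 5 in each of 3 genotypes. Every library has its own mouse label, but the labels 1753 and 1753-2 of the dKO group do not say whether they are separate animals, so the dKO libraries may come from fewer than 5 mice. The dKO mice had the genotype AdipoqCre LKB1 F/F; HDAC4 F/F, the KO mice had AdipoqCre LKB1 F/F, and the WT mice had LKB1 F/F with no Cre named, so floxed LKB1 alleles were common to all 15 libraries. Adipoq-Cre is a recombinase active in adipocytes, so vessel, immune and other stromal cells of the depot would keep both genes, and the reads come from all of these cells together. LKB1 is a kinase upstream of AMPK, and HDAC4 is a class IIa histone deacetylase.

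Complex I is the NADH dehydrogenase of the inner mitochondrial membrane and the largest complex of the respiratory chain. Its N module takes electrons from NADH, its Q module passes them to ubiquinone, and its membrane arm, the P module, pumps protons. Core subunits carry out these reactions and are shared with bacteria; those of the N and Q modules are encoded in the nucleus and those of the membrane arm in mitochondrial DNA. Supernumerary subunits surround the core, and assembly factors help to build the complex without staying in it. White adipocytes hold few mitochondria, while the beige adipocytes that can arise in the inguinal depot hold many and carry the uncoupling protein Ucp1.

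Total counts per library were 1564004 to 12089891 in dKO, 2969355 to 21570688 in KO and 2181109 to 4062909 in WT, and the tested Nduf genes had between 5 and 2739 counts per library. KO libraries 1 and 2 and dKO libraries 4 and 5 were the deepest, at 21570688, 6048092, 8305796 and 12089891 counts. They had barcodes 10, 11, 12 and 13, and no other library exceeded 4388048 counts. Levels are given in the usual CPM units, counts relative to the library size, after scaling by the trimmed mean of M values. A log2 fold change is the log2 of the first-named group's level over the second's, with its standard error (SE). A gene was called when its Benjamini-Hochberg adjusted p in edgeR's quasi-likelihood test over all 12188 genes was under 0.05. Stk11, the gene of LKB1, was at 22.7, 19.3, 21.8, 16.6 and 16.6 CPM in dKO, 18.98, 22.5, 11.6, 20.4 and 16.3 CPM in KO and 22.2, 37.8, 33.6, 24.8 and 29.4 CPM in WT. Only KO library 2 reached the WT range among KO libraries, and only dKO library 1 among dKO libraries. Against WT, the value for Stk11 in KO was -0.69 on the log2 scale (SE 0.18, edgeR adjusted p = 0.115). It passed in 4 of 25 alternatives, with adjusted p between 0.0130 and 0.347. Between dKO and WT it was -0.63 (SE 0.19, edgeR adjusted p = 0.136). Hdac4 is listed as 2 features, and that with the higher counts (ENSMUSG00000026313) was at 10.7, 10.8, 11.2, 9.58 and 9.41 CPM in dKO, 11.2, 13.4, 8.17, 8.35 and 10.2 CPM in KO and 11.2, 16.1, 12.2, 7.63 and 13.9 CPM in WT. The dKO libraries lay inside the KO range, with a log2 fold change of -0.03 in dKO against KO (SE 0.20, edgeR adjusted p = 0.990; -0.04, SE 0.22, for the other feature), so these counts do not separate the libraries labelled dKO from KO at the targeted gene. Which exons are floxed is not given in the sources used here. All 12 adipocyte markers were above 0 counts in every library, and their mean log2 CPM lay between 8.33 and 9.13. Barcodes 12 to 16 were used for dKO alone, and in comparisons with dKO the barcode cannot be told apart from the genotype.

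Complex I genes differed widely between the dKO libraries. The dKO libraries 4 and 5, labelled 1753 and 1753-2, stood above the other dKO libraries in 38 of the 41 tested Nduf genes, a pattern that 30.4% of all tested genes shared. In 32 of the 41 they were also above all 10 KO and WT libraries, against 15.1% of all tested genes. Their mean level was 1.09 to 3.16 times that of dKO libraries 1 to 3, with a median ratio of 2.24 over the Nduf genes and of 0.99 over all tested genes. The smallest ratio was that of Ndufb2, a small membrane arm subunit, and the largest was that of Ndufa8, a membrane arm subunit with paired cysteine motifs that lies on the intermembrane space side. The mean log2 CPM of the 41 genes was 4.47, 4.49, 4.37, 5.60 and 5.49 in dKO, 5.11, 5.04, 5.01, 4.64 and 4.57 in KO, and 4.57, 4.24, 4.65, 4.34 and 4.70 in WT. On this scale dKO libraries 1 to 3 lay within the WT range, dKO libraries 4 and 5 lay above every other library, and 3 of the 5 KO libraries lay above all WT libraries. The highest means, those of dKO libraries 4 and 5 and KO libraries 1 and 2, were those of the deepest libraries, with barcodes 10 to 13. KO library 3, at 5.01, had 3143104 counts and barcode 3. The part of depth or barcode in these values was not tested.

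**Figure D1:**
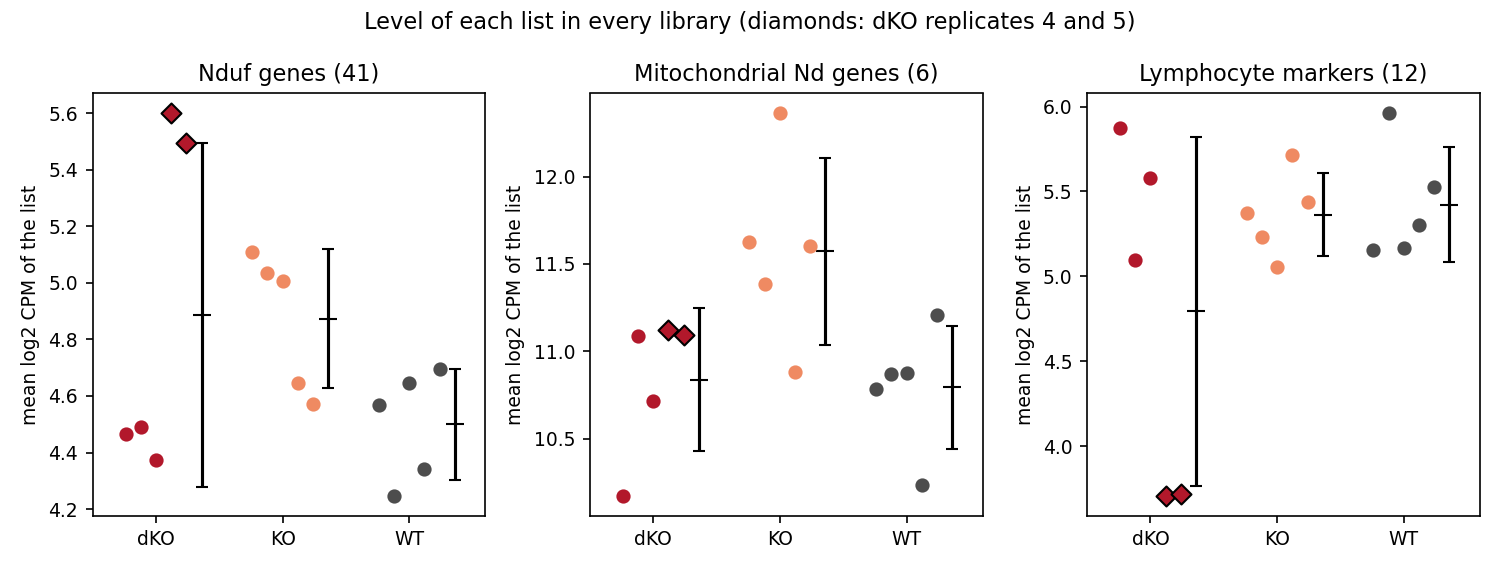
Mean log2 CPM of the 41 tested Nduf genes, the 6 tested mitochondrially encoded Nd genes and the 12 lymphocyte markers in each library, by genotype; points are libraries, diamonds are dKO libraries 4 and 5, and bars give mean ± SD of 5 libraries. The diamonds sit at 5.60 and 5.49 for the Nduf genes and at 3.70 and 3.72 for the lymphocyte markers, outside the range of the other 13 libraries in both panels.

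The same dKO libraries 4 and 5 had the lowest level of lymphocyte markers, with a mean log2 CPM of 3.70 and 3.72 against 5.05 to 5.96 in the other 13 libraries. The summed level of that list ran from 178 to 830 CPM in dKO, 499 to 754 CPM in KO and 487 to 923 CPM in WT. None of its 12 genes was at 0 counts in any library. The same libraries also had the highest adipocyte marker level, at 9.13 and 9.10 against 8.33 to 9.01 elsewhere. Brown and beige adipocyte markers were at a mean log2 CPM of 5.32 and 5.16 in them, above the 4.69, 4.73 and 4.33 of dKO libraries 1 to 3 and within the KO range. The summed brown and beige level did not set them apart, at 431 and 400.06 CPM against 400.21, 417 and 256 CPM in dKO libraries 1 to 3. All these sums were below the 529 to 1375 CPM of KO. Within dKO, libraries 4 and 5 thus differed from libraries 1 to 3 in the mean log2 CPM of these 3 lists as well as of the Nduf genes. Across groups this was not so throughout, since KO library 1 had a higher brown and beige level, 6.03, with a lower Nduf mean, 5.11. The part of the adipocyte and the brown and beige markers was not tested, and a fit with the lymphocyte level is given below. In whole tissue fewer cells of a type and less RNA per cell cannot be told apart. Skeletal muscle markers were highest in KO library 3, at a mean log2 CPM of 6.94, and in WT library 1, at 6.13, and were 2.27 and 3.43 in dKO libraries 4 and 5. The counts of dKO libraries 4 and 5 differed from each other beyond sampling noise, with a chi-square of 4.60 per degree of freedom over 12115 genes. The other pairs of dKO libraries had 4.90 to 43.2, and this value rises with depth. By this measure libraries 4 and 5 were the most alike pair, although they were the deepest dKO libraries. Separate samples of 1 mouse could differ in this way too, so the values cannot say whether the labels are separate animals. Libraries 4 and 5 were counted as separate samples. The median SD of a Nduf gene's log2 CPM was 0.66 in dKO, 0.33 in KO and 0.28 in WT, and it was 0.22 in dKO without libraries 4 and 5.

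The comparison of KO with WT asks what loss of the kinase in adipocytes does to these genes. In KO against WT, 40 of the 41 tested Nduf genes had a positive log2 fold change, with a median of 0.39, while 50.6% of all tested genes were positive and their median was 0.01. That median was above the median SD of a Nduf gene's log2 CPM between libraries, 0.33 in KO and 0.28 in WT. This SD is that of single genes and is no test of the median. No Nduf gene was called by edgeR, where 0.624% of all tested genes were, and the lowest adjusted p was 0.133. An unadjusted edgeR p under 0.05 with a higher level in KO was found for 7 of the 41 Nduf genes, against 5.65% of all tested genes. DESeq2 called 1 Nduf gene, Ndufaf4 (adjusted p = 0.0427), and 176 of all 12188 genes. The limma voom fit with sample weights called 0 Nduf genes and 275 of all genes. The count moved with dKO libraries 4 and 5, which enter this comparison only through the shared filter, scaling and estimate of spread. Without both of them 3 Nduf genes rose in KO, Ndufab1 and Ndufaf4 among them, where 2.14% of all tested genes were called, and the median stayed at 0.38. An unadjusted edgeR p under 0.05 with a higher level in KO was then found for 24 of the 41, against 7.39% of all tested genes. Ndufab1 and Ndufaf4 were also among 3 Nduf genes that rose when only KO and WT were fitted, where 224 of all 11708 genes were called. Leaving out any library singly gave 0 called Nduf genes.

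Markers of several cell types had unequal levels in KO and WT, and the part of the brown and beige and of the macrophage markers in the Nduf values was not tested. Of 9 tested brown and beige adipocyte markers, 6 rose in KO, and the list averaged a log2 CPM of 5.14 to 6.03 in KO and 2.54 to 3.76 in WT. Of 13 macrophage markers none passed the test and all had negative log2 fold changes, with a median of -0.50 and an unadjusted p under 0.05 for 8. Their summed level was 818 to 1119 CPM in KO and 979 to 1950 CPM in WT. DESeq2 called 0 and voom 1 of these macrophage markers, and all 13 were above 0 counts in every library. Of 11 tested skeletal muscle markers 10 were positive, with a median of 1.51 and summed levels of 94.2 to 3690 CPM in KO and 25.9 to 1356 CPM in WT. The edgeR, DESeq2 and voom tests called 0 of them, and 0 had an unadjusted p under 0.05. With the muscle marker level as a covariate, the Nduf median in KO against WT was 0.41 and edgeR called 0 Nduf genes (lowest adjusted p = 0.348).

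The 7 nuclear-encoded core subunits, which hold the flavin and the iron-sulfur clusters, were positive in 7 of 7 in KO against WT, with log2 fold changes of 0.30 for Ndufs3 to 0.66 for Ndufs8.

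Ndufv1 (ENSMUSG00000037916, mm9 chromosome 19, 4007497 to 4012806), the subunit that binds NADH and flavin mononucleotide, was at 29.2, 27.4, 30.5, 71.7 and 63.7 CPM in dKO, 54.4, 50.7, 65.8, 37.99 and 33.8 CPM in KO and 36.4, 27.3, 33.9, 23.7 and 35.3 CPM in WT. KO libraries 1 to 4 exceeded all WT libraries, KO library 4 by little, and KO library 5 lay inside the WT range. The log2 fold change was 0.63 (SE 0.27, edgeR adjusted p = 0.444). Ndufv2 (chromosome 17, 66428135 to 66450899), its partner with an iron-sulfur cluster, was at 23.7, 25.4, 28.6, 55.1 and 51.02 CPM in dKO, 45.9, 44.8, 47.7, 29.1 and 31.9 CPM in KO and 31.9, 15.2, 29.7, 20.2 and 33.4 CPM in WT. Its log2 fold change of 0.61 (SE 0.26, edgeR adjusted p = 0.452) came with 3 KO libraries above and 2 inside the WT range. Ndufs8 (chromosome 19, 3908870 to 3912717), which carries a pair of iron-sulfur clusters in the Q module, was at 18.2, 17.6, 13.7, 42.7 and 30.7 CPM in dKO, 27.9, 27.9, 20.6, 16.4 and 25.05 CPM in KO and 13.6, 13.01, 12.8, 13.7 and 21.9 CPM in WT. WT library 5 stood apart from the other WT libraries and overlapped KO, and the log2 fold change of 0.66 (SE 0.27, edgeR adjusted p = 0.412) was the largest of the core subunits.

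Ndufs1 (chromosome 1, 63190170 to 63223396), the largest subunit and a carrier of iron-sulfur clusters in the N module, was at 54.2, 48.5, 62.8, 129.7 and 127 CPM in dKO, 86.7, 82.8, 94.6, 59.6 and 49.4 CPM in KO and 63.04, 48.95, 57.9, 49.6 and 57.4 CPM in WT. Its exons overlap those of Gm11602, and the strand setting of the counting is not given in the sources used here, so its counts may include reads of that gene. Ndufs7 (chromosome 10, 79711866 to 79719539), which holds the terminal iron-sulfur cluster next to ubiquinone, was at 24.3, 19.1, 19.9, 39.2 and 38.9 CPM in dKO, 25.8, 28.6, 32.7, 21.9 and 21.4 CPM in KO and 16.7, 14.6, 19.3, 20.98 and 25.6 CPM in WT. Ndufs3 (chromosome 2, 90734791 to 90744984), a Q module subunit, was at 37.7, 34.7, 45.4, 69.7 and 63.1 CPM in dKO, 49.3, 51.4, 43.8, 43.2 and 28.3 CPM in KO and 35.3, 37.5, 36.8, 33.2 and 33.9 CPM in WT, and its exons overlap those of Kbtbd4. These 3 had log2 fold changes of 0.43, 0.42 and 0.30 in KO against WT (SE 0.26, 0.22 and 0.19), and in each the KO and WT libraries overlapped.

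Among supernumerary subunits, 2 had KO libraries that lay wholly above the WT libraries, where 2.11% of all tested genes did so. Ndufab1 (chromosome 7, 129228917 to 129245400), the mitochondrial acyl carrier protein that also serves fatty acid synthesis and iron-sulfur cluster assembly, was at 38.95, 60.01, 39.8, 91.1 and 95.1 CPM in dKO, 76.6, 77.2, 70.1, 55.5 and 66.1 CPM in KO and 44.7, 43.4, 51.1, 42.7 and 51.02 CPM in WT. Every KO library exceeded every WT library, and the log2 fold change was 0.57 (SE 0.21, edgeR adjusted p = 0.350), or 0.56 (SE 0.14, edgeR adjusted p = 0.0300) without dKO libraries 4 and 5. Ndufs4 (chromosome 13, 115078003 to 115178302), an accessory subunit of the N module whose loss causes mitochondrial disease, was at 42.5, 48.5, 40.4, 94.6 and 94.3 CPM in dKO, 72.3, 58.2, 67.1, 46.04 and 46.5 CPM in KO and 43.7, 44.6, 43.4, 36.6 and 42.7 CPM in WT. The lowest KO library, library 4, was just above the highest WT library, and WT library 4 stood below the other WT libraries. The log2 fold change of Ndufs4 was 0.46 (SE 0.23, edgeR adjusted p = 0.555), and it did not pass in any of the 25 alternatives, with adjusted p between 0.0748 and 0.826. All 10 supernumerary subunits of the N and Q modules were positive in KO against WT, with a median of 0.37 and a range of 0.11 for Ndufa7 to 0.61 for Ndufa12.

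The 19 tested supernumerary subunits of the membrane arm were positive in 19 of 19, with a median of 0.38. Ndufb6 (chromosome 4, 40217624 to 40226454), a small subunit that spans the membrane, had the largest value among them and was at 6.82, 8.03, 3.11, 16.9 and 15.6 CPM in dKO, 9.49, 11.6, 9.89, 4.604 and 8.71 CPM in KO and 4.19, 5.27, 6.24, 4.58 and 6.95 CPM in WT. A log2 fold change of 0.71 was estimated (SE 0.35, edgeR adjusted p = 0.548). KO library 4 lay inside the WT range and the other KO libraries above it, its counts were low, and its exons overlap those of 2010003O02Rik. Ndufa13 (chromosome 8, 72418087 to 72426457), also known as GRIM-19 and tied to cell death and STAT3 signalling, had the smallest, 0.00 (SE 0.30). Ndufc2 (chromosome 7, 104548513 to 104556312), another small membrane subunit, was at 30.2, 29.1, 27.98, 57.9 and 50.3 CPM in dKO, 42.9, 36.7, 32.7, 29.4 and 21.8 CPM in KO and 28.8, 21.7, 27.6, 21.4 and 26.7 CPM in WT, with a log2 fold change of 0.39 (SE 0.22, edgeR adjusted p = 0.642). KO libraries 1 to 4 of Ndufc2 lay above all WT libraries, library 4 by little, and KO library 5 lay at the low end of the WT range.

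Ndufaf4 (chromosome 4, 24825230 to 24832148), an assembly factor for the Q module, had the largest log2 fold change of all 41 genes in KO against WT and was at 13.96, 16.1, 22.4, 28.6 and 31.02 CPM in dKO, 24.1, 19.01, 46.4, 18.4 and 28.3 CPM in KO and 13.1, 10.2, 11.9, 12.2 and 18.97 CPM in WT. In all, 4 KO libraries exceeded all WT libraries, though KO library 2 was level with WT library 5 and KO library 4 just under it. The single highest value was that of KO library 3, which also had the highest muscle marker level. The log2 fold change was 1.003 (SE 0.28, edgeR adjusted p = 0.133), with a range of 0.73 to 1.16 over all alternatives, and it passed in 4 of 25. Ndufaf1 (chromosome 2, 119481182 to 119488563), which helps to assemble the membrane arm, was at 10.4, 8.79, 9.95, 20.8 and 22.7 CPM in dKO, 15.1, 10.9, 9.89, 11.8 and 8.71 CPM in KO and 12.6, 8.36, 4.16, 11.4 and 8.55 CPM in WT, a log2 fold change of 0.36 (SE 0.31). Ndufaf3 (chromosome 9, 108468197 to 108469673), the partner of Ndufaf4 in Q module assembly, was the only tested Nduf gene with a negative value, -0.26 (SE 0.27, edgeR adjusted p = 0.857), and was at 8.11, 6.03, 4.35, 10.3 and 7.71 CPM in dKO, 7.21, 7.604, 5.16, 4.32 and 3.63 CPM in KO and 7.59, 6.51, 9.80, 4.197 and 6.68 CPM in WT. The genes of these partner proteins thus lay at opposite ends of the range, and the difference between them was not tested. The median of the 4 assembly factors whose symbols begin with Nduf was 0.25. Another 4 (Ndufaf5, Ndufaf6, Ndufaf7 and Ndufaf8) stand in the table under older names that the rule did not take; their log2 fold changes in KO against WT were 0.27, 0.23, 0.35 and -0.32, and edgeR called 0 of them.

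Ndufa4 (chromosome 6, 11850373 to 11857446) carries a complex I name, but its protein is known as a subunit of complex IV. It was at 50.6, 61.01, 59.1, 139 and 138 CPM in dKO, 90.02, 91.9, 99.3, 64.5 and 80.2 CPM in KO and 64.6, 48.95, 68.9, 55.7 and 72.4 CPM in WT, with KO library 4 inside the WT range and the other 4 KO libraries above it. The log2 fold change of 0.45 (SE 0.26, edgeR adjusted p = 0.641) was close to the median of the complex I genes. Ndufa4l2, its hypoxia-induced paralog, was below the expression filter with 1 to 44 counts per library and was at 0.649, 0.251, 0.622, 1.87 and 1.78 CPM in dKO, 2.13, 1.65, 0.86, 0.288 and 0.726 CPM in KO and 1.05, 0.31, 1.19, 0.763 and 1.603 CPM in WT, and it was not tested. The other untested row was a feature of 225 bases named Ndufb8, which had 0 counts in every library; the longer Ndufb8 row was tested.

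**Figure D2:**
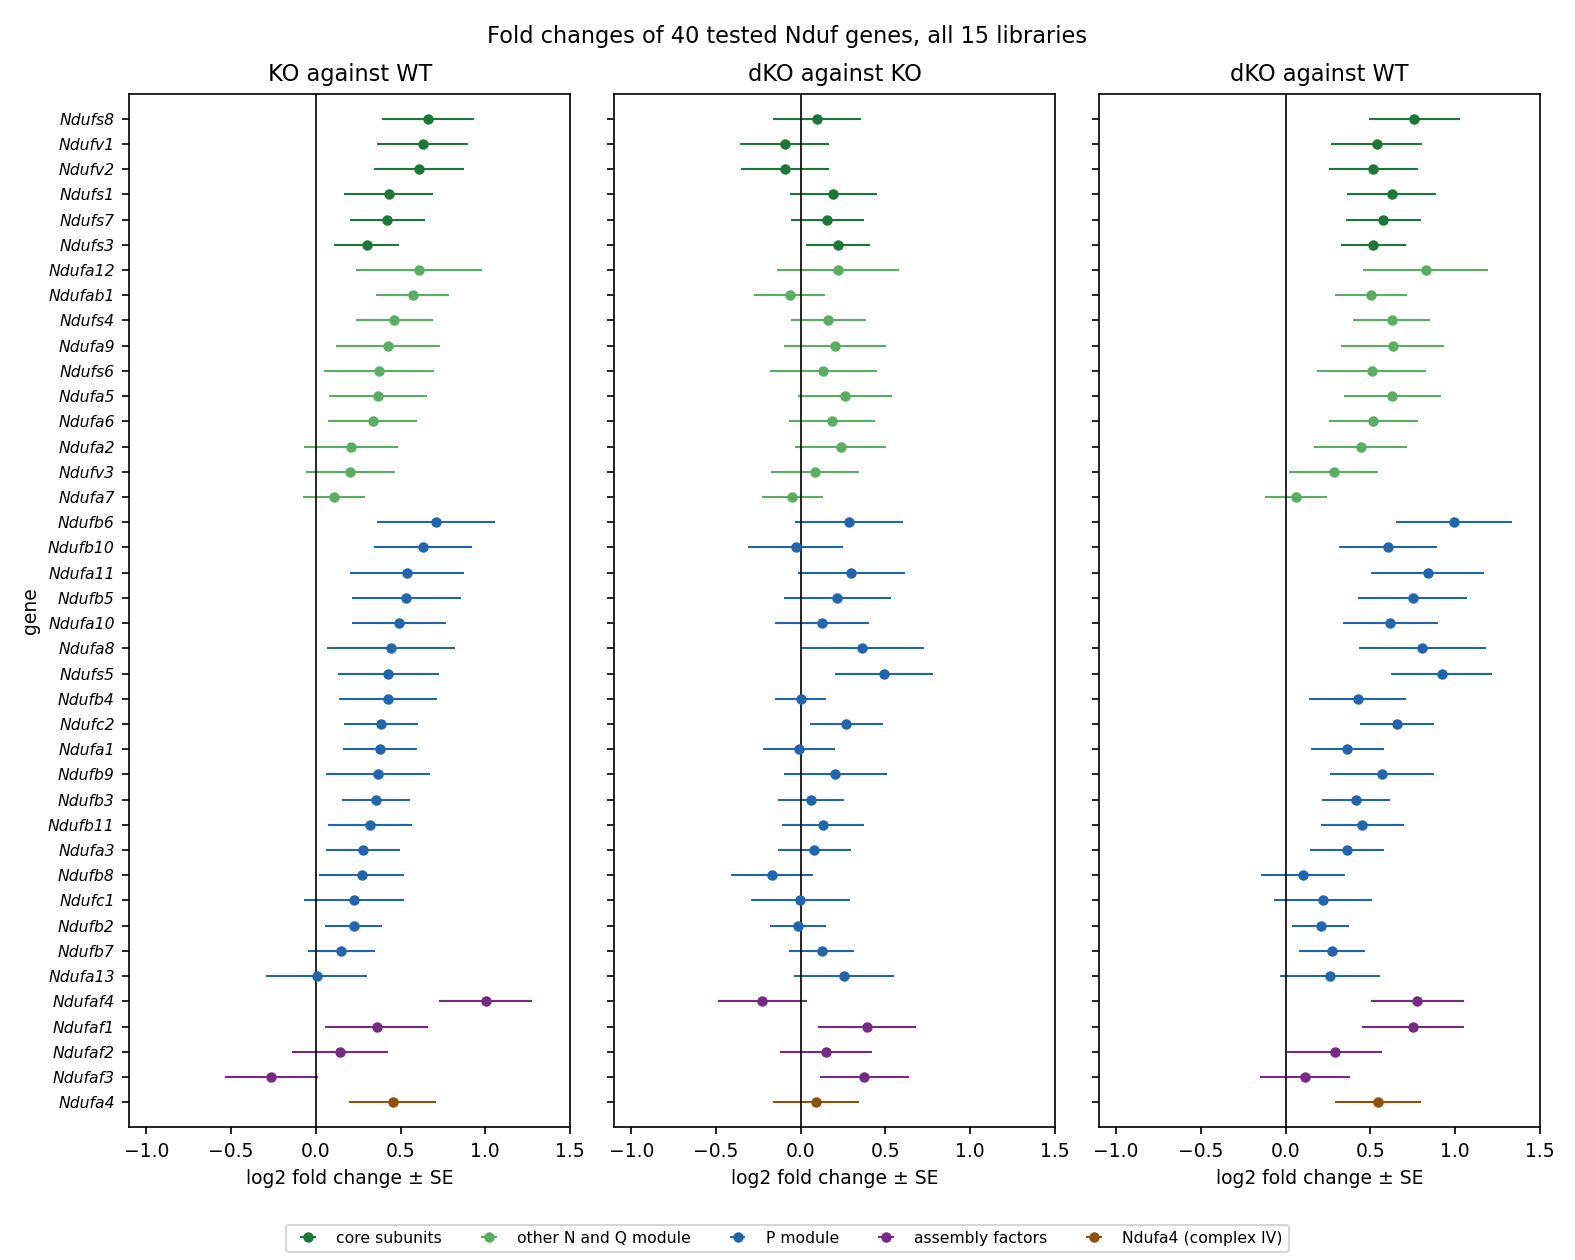
Log2 fold change ± SE of 40 tested Nduf genes with all 15 libraries, in 3 panels (KO over WT, dKO over KO, dKO over WT), ordered by role and by size in KO against WT. In the left panel the points run from -0.26 for Ndufaf3 to 1.003 for Ndufaf4, and edgeR called no gene in any panel.

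RefSeq promoter windows, in build GRCm38.p6 rather than the mm9 of the counts, were matched for 37 Nduf genes. Each runs from 250 bases before to 50 bases after the gene start and is shown for motif letters known from nuclear genes of the respiratory chain. The letters searched on both strands were those of NRF1 (CGCANGCGC), of YY1 (AAGATGGCG), of ETS factors such as GABP (CCGGAAG), of NF-Y (CCAAT) and of the oestrogen-related receptors (TCAAGGTCA). NRF1 letters were in 10 of 37 Nduf windows (27.0%), against 6.59% of all 27025 windows, and YY1 letters were in 5 (13.5%), against 1.49%. ETS letters were in 5 (13.5%) against 9.12%, NF-Y letters in 13 (35.1%) against 37.9%, and the receptor letters in 0 against 0.407%. The median GC content was 59.3% in Nduf windows and 52.7% in all windows, and its part in the shares was not tested. No hits of different motifs overlapped, in 2 windows hits of the same motif overlapped, and 10 windows held none of the 5. A match is a description of the sequence and not a binding site. The 4 windows below belong to the gene with the largest value in KO against WT (Ndufaf4, chr4:24897833-24898132, plus strand), the largest in dKO against KO (Ndufs5, chr4:123718137-123718436, minus strand), a core subunit (Ndufs3, chr2:90904672-90904971, minus strand) and a gene whose KO and WT libraries did not overlap (Ndufs4, chr13:114388045-114388344, minus strand). They are given 5′ to 3′ on the gene's strand, and capitals mark NRF1 letters in Ndufaf4 and Ndufs5, ETS letters in Ndufs3 and YY1 letters in Ndufs4.
Ndufaf4: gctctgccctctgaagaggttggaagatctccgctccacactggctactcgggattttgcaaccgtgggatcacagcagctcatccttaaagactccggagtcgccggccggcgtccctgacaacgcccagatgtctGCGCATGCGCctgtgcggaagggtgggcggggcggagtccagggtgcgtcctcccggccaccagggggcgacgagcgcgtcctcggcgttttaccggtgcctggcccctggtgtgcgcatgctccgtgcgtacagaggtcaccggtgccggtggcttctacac
Ndufs5: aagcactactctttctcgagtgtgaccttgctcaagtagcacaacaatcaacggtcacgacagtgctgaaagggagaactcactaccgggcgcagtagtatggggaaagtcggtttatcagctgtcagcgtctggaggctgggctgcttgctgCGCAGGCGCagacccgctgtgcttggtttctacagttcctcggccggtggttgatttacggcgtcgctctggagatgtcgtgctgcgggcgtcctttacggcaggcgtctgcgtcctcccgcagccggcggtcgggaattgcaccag
Ndufs3: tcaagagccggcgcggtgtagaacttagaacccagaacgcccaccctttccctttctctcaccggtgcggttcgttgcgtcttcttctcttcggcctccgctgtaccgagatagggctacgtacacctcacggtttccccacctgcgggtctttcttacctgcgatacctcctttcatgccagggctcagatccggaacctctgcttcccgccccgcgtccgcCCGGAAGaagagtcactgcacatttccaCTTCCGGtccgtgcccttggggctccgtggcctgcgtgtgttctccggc
Ndufs4: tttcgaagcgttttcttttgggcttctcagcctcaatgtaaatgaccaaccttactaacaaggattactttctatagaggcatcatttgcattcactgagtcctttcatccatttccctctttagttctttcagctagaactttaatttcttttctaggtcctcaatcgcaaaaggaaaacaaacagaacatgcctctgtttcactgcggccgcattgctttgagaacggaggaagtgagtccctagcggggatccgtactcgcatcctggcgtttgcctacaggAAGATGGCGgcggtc
In Ndufaf4 a palindromic stretch matches NRF1 on both strands, and in Ndufs4 the YY1 letters lie just downstream of the gene start. No relation between motif and fold change was tested.

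The comparison of dKO with KO asks what targeting HDAC4 adds to the loss of LKB1, and its answer for complex I genes depended on dKO libraries 4 and 5. With all libraries, 31 of 41 Nduf genes had a positive log2 fold change in dKO against KO, against 50.4% of all tested genes. Their median was 0.13, and that of all tested genes was 0.00. The median SD of a Nduf gene was larger than 0.13 in both groups, 0.66 in dKO and 0.33 in KO. The edgeR test called 0 of the 41, where 0.0738% of all tested genes were called, and the lowest adjusted p was 0.833. Of the 41, 0 had an unadjusted p under 0.05 with a higher level in dKO, against 3.32% of all tested genes. DESeq2 and voom also called 0. In 0 of the 41 did the dKO libraries lie wholly above the KO libraries, against 0.656% of all tested genes. Without dKO libraries 4 and 5 the direction turned. Then 40 of 41 Nduf genes were negative, against 50.1% of all tested genes, with a median of -0.49 and a range of -0.81 for Ndufb8 to 0.11 for Ndufaf3. The edgeR test then called 0 of the 41, with 0.151% of all tested genes called. An unadjusted edgeR p under 0.05 with a lower level in dKO was found for 21 of them, against 5.4% of all tested genes. With the lymphocyte marker level as a covariate and all libraries kept, the median was -0.35. That level was 3.70 and 3.72 in dKO libraries 4 and 5 and 5.05 to 5.96 in the others. The covariate thus mostly sets those libraries apart, and its result is not independent of leaving them out. Without dKO library 4 alone the median was -0.07, and without dKO library 5 alone it was 0.00.

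Ndufs5 (chromosome 4, 123389953 to 123395445), a membrane arm subunit on the intermembrane space side, had the largest log2 fold change in dKO against KO, 0.49 (SE 0.29, edgeR adjusted p = 0.833). It was at 24.99, 21.3, 25.5, 64.9 and 62.6 CPM in dKO, 38.9, 29.3, 27.9, 23.3 and 24.3 CPM in KO and 20.7, 17.97, 29.4, 16.8 and 22.97 CPM in WT. Libraries 1 to 3 of dKO lay in the lower part of the KO range or below it and libraries 4 and 5 far above it. Without libraries 4 and 5 the log2 fold change was -0.29 (SE 0.20, edgeR adjusted p = 0.7099). Ndufv1 shows the same split in the values given above, since dKO libraries 1 to 3, at 29.2, 27.4 and 30.5 CPM, were below all 5 KO libraries. Without dKO libraries 4 and 5 its log2 fold change in dKO against KO was -0.74 (SE 0.20, edgeR adjusted p = 0.167), against -0.09 (SE 0.26) with all libraries. Ndufaf4 had the lowest value with all libraries, -0.23 (SE 0.26, edgeR adjusted p = 0.910), and -0.63 (SE 0.28, edgeR adjusted p = 0.483) without dKO libraries 4 and 5.

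**Figure D3:**
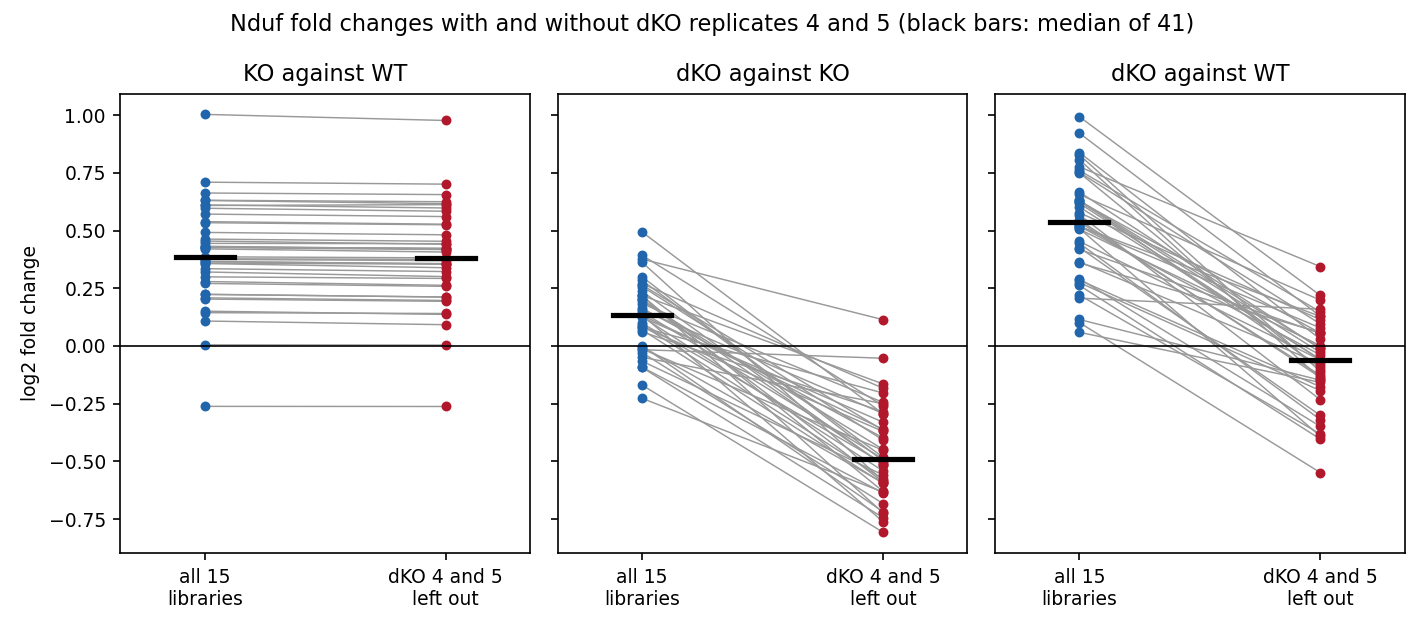
Log2 fold changes of the 41 tested Nduf genes with all 15 libraries and with dKO libraries 4 and 5 left out, in 3 panels (KO over WT, dKO over KO, dKO over WT); lines join a gene and black bars mark the median. The median stays at 0.39 and 0.38 for KO over WT. With those libraries left out it is -0.49 for dKO over KO, against 0.13 with all, and -0.06 for dKO over WT, against 0.54 with all.

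In dKO against WT, the comparison that spans both targeted genes, all 41 Nduf genes had a positive log2 fold change with all libraries, against 49.7% of all tested genes. The median was 0.54, and that of all tested genes was -0.00. The median SD of a Nduf gene was larger than 0.54 in dKO, at 0.66, and smaller in WT, at 0.28. With the lymphocyte marker level as a covariate the median was 0.052 and 25 of the 41 were positive, and here too the covariate mostly sets dKO libraries 4 and 5 apart. The edgeR test called 0 of the 41, where 0.615% of all tested genes were called, with a lowest adjusted p of 0.175, and DESeq2 and voom also called 0. An unadjusted p under 0.05 with a higher level in dKO was found for 19 of the 41, against 9.01% of all tested genes. Of the 41, 0 had dKO libraries wholly above the WT libraries, against 1.3% of all tested genes. Ndufb6 had the largest value, 0.99 (SE 0.34, edgeR adjusted p = 0.199), and Ndufa7 the smallest, 0.06 (SE 0.18). Ndufa8 (chromosome 2, 35891846 to 35904926), at 14.3, 19.8, 15.5, 54.7 and 49.8 CPM in dKO, 34.6, 29.6, 22.8, 21.6 and 13.8 CPM in KO and 22.8, 9.29, 20.2, 20.6 and 18.97 CPM in WT, shows the pattern: dKO libraries 1 to 3 were inside the WT range and dKO libraries 4 and 5 were far above it. The low end of that WT range was WT library 2, at 9.29 CPM, which stood apart from the other WT libraries. Libraries 1 and 3 of dKO lay below those other WT libraries. The log2 fold change of Ndufa8 in dKO against WT was 0.81 (SE 0.37, edgeR adjusted p = 0.339) with all libraries and -0.14 (SE 0.29, edgeR adjusted p = 0.957) without dKO libraries 4 and 5. Without these libraries 15 of 41 Nduf genes were positive and 26 negative, where 50.1% of all tested genes were positive, and the median was -0.06. The edgeR test then called 0 of the 41, and 0.238% of all tested genes. An unadjusted edgeR p under 0.05 was found for 1 Nduf gene, which was lower in dKO, as were 4.52% of all tested genes at that p. Brown and beige adipocyte markers and macrophage markers had unequal levels in dKO and WT too, and their part was not tested. Of 9 brown and beige adipocyte markers 6 rose in dKO against WT with all libraries, with a median of 1.36, and 2 rose without dKO libraries 4 and 5, with a median of 1.03. Of 13 macrophage markers 0 were positive, with a median of -0.70, and of these edgeR called 0 (an unadjusted p under 0.05 for 11), DESeq2 2 and voom 0. Their summed level was 727 to 1000.04 CPM in dKO and 979 to 1950 CPM in WT. The 3 comparisons share libraries, so their values for the same gene are not independent.

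**Figure D4:**
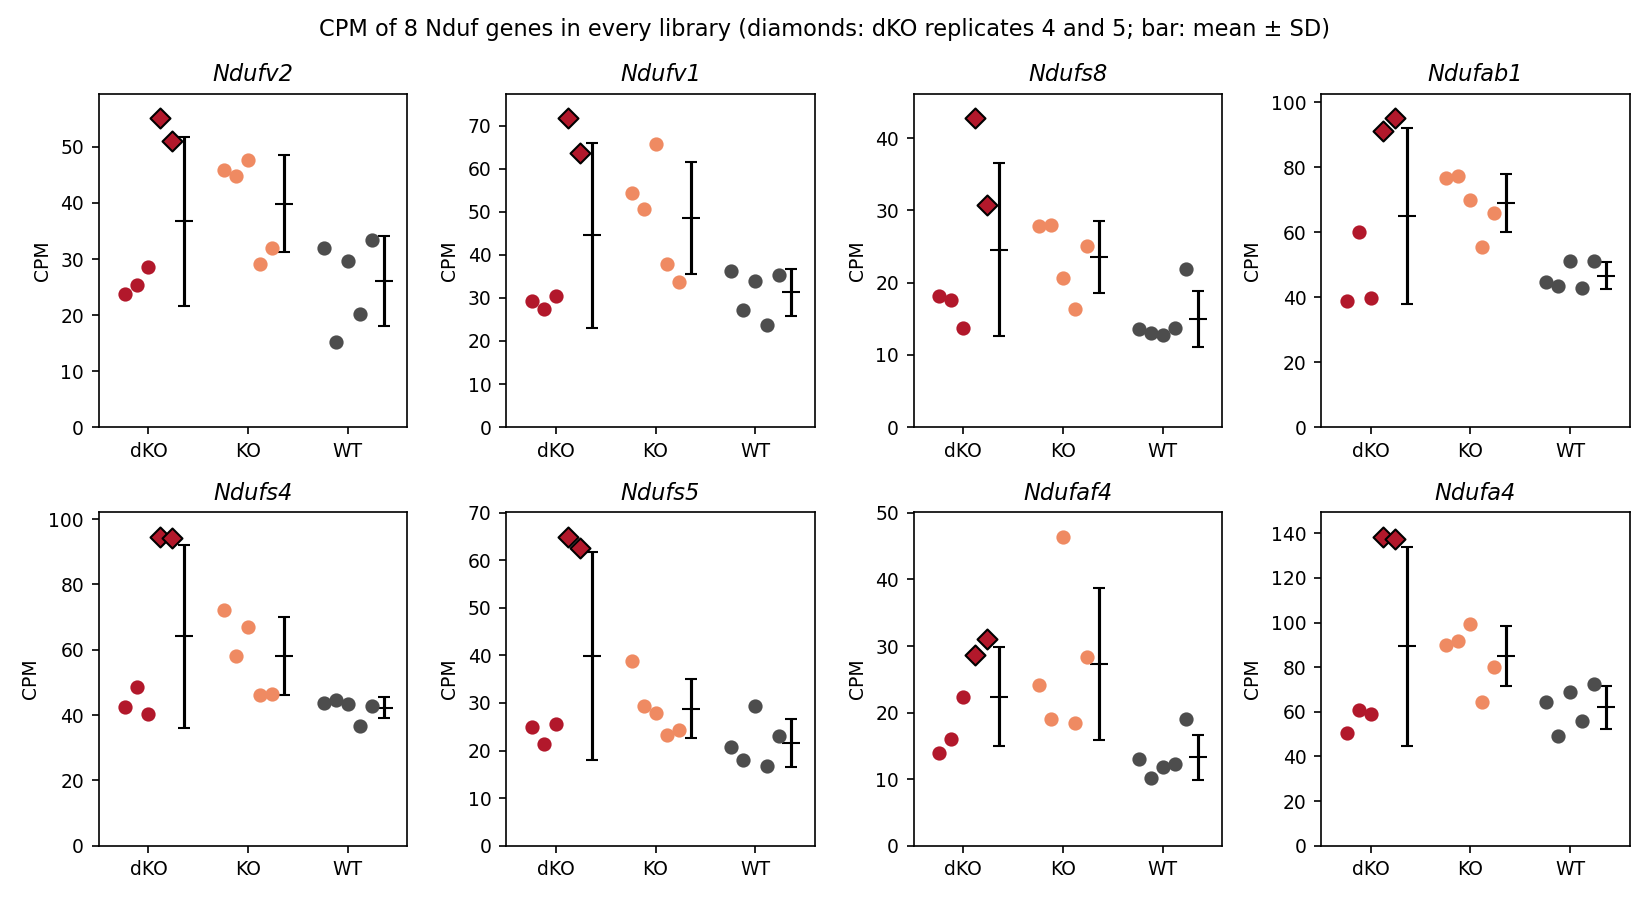
CPM of 8 Nduf genes in every library, by genotype; diamonds are dKO libraries 4 and 5 and bars give mean ± SD of 5 libraries. The diamonds lie above every other library in 6 of the genes, while KO library 3, at 65.8 CPM in Ndufv1, lies between them, and at 46.4 CPM in Ndufaf4 lies above both.

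The core subunits of the membrane arm are encoded in mitochondrial DNA. Of the 7, mt-Nd4l had 0 to 4 counts and was not tested. The mean log2 CPM of the other 6 was 10.17, 11.09, 10.71, 11.12 and 11.09 in dKO, 11.63, 11.38, 12.37, 10.88 and 11.60 in KO, and 10.78, 10.87, 10.88, 10.23 and 11.20 in WT. The means of dKO libraries 4 and 5 were level with that of dKO library 2. In 3 of the 6, mt-Nd1, mt-Nd3 and mt-Nd6, both libraries were above the other dKO libraries, and the ratios to those libraries were 0.99 for mt-Nd4 to 1.82 for mt-Nd3. All 6 were positive in KO against WT, with a median of 0.80. In dKO against KO 0 of 6 were positive, with a median of -0.82. The edgeR test called 0 of them in either comparison (an unadjusted p under 0.05 for 4 and for 5), DESeq2 called 3 and 1, and voom called 3 and 0. mt-Nd2, a proton-pumping subunit, was at 1119, 2977, 1854, 2278 and 2343 CPM in dKO, 3997, 3068, 7574, 2150.2 and 5047 CPM in KO and 1676, 2055, 1552, 987 and 2807 CPM in WT. Of the KO libraries 4 lay above all WT libraries and the remaining one, library 4, lay inside the WT range. The log2 fold change was 1.27 (SE 0.33, edgeR adjusted p = 0.116) in KO against WT and -1.05 (SE 0.33, edgeR adjusted p = 0.572) in dKO against KO. Between dKO and WT the median of the 6 was -0.02. Reads of mitochondrial genes can also match nuclear copies, and how such reads were counted is not given in the sources used here.

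Among 12 tested regulators known to drive respiratory chain genes, 2 rose in KO against WT and none fell. Ppargc1a, the coactivator PGC-1α, was at 42.2, 65.3, 36.1, 70.8 and 68.6 CPM in dKO, 90.1, 78.5, 55.02, 33.7 and 57.4 CPM in KO and 18.8, 21.1, 25.8, 29.4 and 24.04 CPM in WT, with every KO and every dKO library above all WT libraries. Its log2 fold change was 1.42 in KO against WT (SE 0.24, edgeR adjusted p = 0.00769), which passed in 25 of 25 alternatives. It was 1.27 in dKO against WT (SE 0.24, edgeR adjusted p = 0.0218), which passed in 15 of 25. Without dKO libraries 4 and 5 that adjusted p was 0.171. Esrrg, an oestrogen-related receptor that binds promoters of these genes, was at 7.47, 7.78, 5.596, 8.29 and 6.87 CPM in dKO, 15.7, 17.9, 18.1, 10.4 and 11.98 CPM in KO and 4.19, 9.91, 4.75, 2.67 and 6.14 CPM in WT, with every KO library above all dKO and WT libraries. Its log2 fold change in KO against WT was 1.41 (SE 0.27, edgeR adjusted p = 0.0145), which passed in 24 of 25 alternatives (adjusted p = 0.0518 without KO library 1). In dKO against KO it was -1.02 (SE 0.25, edgeR adjusted p = 0.278), which passed in 1 of 25 alternatives, DESeq2 (adjusted p = 0.0284). The genes of the factors whose letters were searched, Nrf1, Gabpa and Yy1, had log2 fold changes of -0.06, 0.19 and 0.09 in KO against WT (SE 0.20, 0.10 and 0.15). Beside these, Ucp1 rose in KO against WT by 5.10 on the log2 scale (SE 0.45, edgeR adjusted p = 2.81e-05). In dKO it was lower than in KO, with a log2 fold change of -2.31 (SE 0.39, edgeR adjusted p = 0.0393) that passed in 13 of 25 alternatives and not without dKO libraries 4 and 5 (adjusted p = 0.185), nor without any single dKO library (adjusted p of 0.0540 to 0.172). Against WT the value in dKO was 2.80 (SE 0.42, edgeR adjusted p = 0.00457), which passed in 24 of 25 (adjusted p = 0.0886 without both).

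Levels of different Nduf genes can be set side by side only per length, and the lengths used here are those of the table's exons, which cover all transcripts of a gene. Over the 15 libraries Ndufa4 had the highest mean level, 160.3 CPM per kilobase, followed by Ndufb9 at 149.6 and Ndufa1 at 71.1. The lowest tested were Ndufb2 at 2.71, Ndufb7 at 3.98 and Ndufa11 at 4.47, all with long exon annotations. Exons of 9 of the 41 overlap those of another row, so part of their counts may belong to the neighbour. For Ndufb8 the overlapping row was only the untested one of the same name, which had 0 counts.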

How the data were processed

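The deposited table holds raw counts of reads per gene for 15 libraries, made by the authors with FastQC, Subread, featureCounts and edgeR, per the submitters' processing notes, in mm9 coordinates; these sources give no versions and no strand setting. Its 45 further columns of scaled values were not used. The table's 37991 genes were filtered with filterByExpr (minimum count 10, minimum total 15), scaled by the trimmed mean of M values and fitted in one edgeR quasi-likelihood model of 3 groups with 12 residual degrees of freedom (R 4.3.3, edgeR 4.0.16, limma 3.58.1, DESeq2 1.42.0). Adjusted p-values are Benjamini-Hochberg values over all 12188 genes tested, two-sided, with a threshold of 0.05, and a SE is the absolute log2 fold change over the square root of F. Of 43 Nduf rows (42 symbols) 41 were tested. Log2 CPM used a prior count of 2. The fit was tested on simulated data.

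Genes given in every library were those with the 6 smallest p-values or the most extreme fold changes in a comparison, the nuclear-encoded core subunits, and Ndufa4, Ndufa4l2, Ndufab1 and Ndufaf1. One member that this rule names is not reported here by name. Members and lists were chosen with earlier results of these data known. Each library has its own mouse label, so p-values measure the spread between these samples. Alternatives tried were median-of-ratios factors, no filter, DESeq2, voom with sample weights, fits of only the groups compared, the libraries 1753 and 1753-2 summed or left out, muscle or lymphocyte marker level as a covariate, mitochondrial rRNA removed, and each library left out in turn. Mitochondrial rRNA took 33.5% to 50.0% of counts. Promoter windows are RefSeq's for GRCm38.p6, a later build than the table's, and no coordinates were converted.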

Additional observations from a re-analysis of the deposited data

Results flagged for a closer look

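In a check of 51 groups of 5 libraries, 3 had a library whose gap to its nearest neighbour was a larger part of the group's range than Dixon's 95% critical value; chance marks about 1 in 20 such groups. Ndufa8 was at 9.29 CPM in WT library 2, below the other WT libraries. Ndufs4 was at 36.6 CPM in WT library 4, below the other WT libraries, and Ndufs8 was at 21.9 CPM in WT library 5, above the other WT libraries.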

How the results depend on the processing

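No paired analysis was possible because the groups share no mouse label. The labels of dKO libraries 4 and 5 do not say whether these are separate animals. The p-values of comparisons with dKO may therefore treat samples of the same mouse as independent. Of 1500 values of single named genes under alternatives, 1399 kept their direction and side of the threshold, 16 passed it anew, 24 no longer passed and 61 changed sign. Causes of the changes below were not tested. Depth limits the low genes most, since a tested Nduf gene had as few as 5 counts in a library.

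In KO against WT the number of Nduf genes called, 0 in the report, was 1 with DESeq2, 3 with only KO and WT fitted, 3 without dKO libraries 4 and 5 and 6 with the lymphocyte covariate; the median stayed between 0.31 and 0.46 with single libraries left out. Of all genes, 76 were called in KO against WT, and 176 with DESeq2, 275 with voom, 224 with only those groups, 270 without dKO libraries 4 and 5, 44 with the muscle covariate, 387 with the lymphocyte covariate and 36 to 93 with single libraries left out (36 without KO library 1, 41 without KO library 3, WT library 4 or WT library 5). In dKO against KO 9 genes were called, and 19 without a filter, 37 with DESeq2, 5 with only those groups, 4 with 1753 and 1753-2 summed, 19 without both, 48 with the lymphocyte covariate and 4 to 13 with single libraries left out. In dKO against WT 75 were called, and 235 with DESeq2, 28 with voom, 32 with only those groups, 26 with 1753 and 1753-2 summed, 30 without both, 46 with the muscle covariate and 27 to 240 with single libraries left out (240 without dKO library 1).

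The median of the Nduf genes in dKO against KO was -0.044 with voom, -0.029 with 1753 and 1753-2 summed, -0.49 without both, -0.35 with the lymphocyte covariate and -0.073 to 0.25 with single libraries left out. In dKO against WT it was -0.060 without both, 0.052 with the lymphocyte covariate and 0.36 to 0.65 with single libraries left out.

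Signs of single genes changed in dKO against KO with voom for Ndufs8 (-0.12), Ndufs4 (-0.043), Ndufa4 (-0.17), Ndufs1 (-0.072) and Ndufa8 (-0.015). With 1753 and 1753-2 summed they changed for Ndufs8 (-0.089), Ndufs4 (-0.0070) and Ndufa4 (-0.11). Without both they changed for Ndufs8 (-0.51), Ndufb6 (-0.48), Ndufs4 (-0.40), Ndufa4 (-0.58), Ndufs7 (-0.29), Ndufs1 (-0.45), Ndufc2 (-0.18), Ndufs3 (-0.16), Ndufs5 (-0.29), Ndufa8 (-0.58) and Ndufaf1 (-0.26). With the lymphocyte covariate they changed for Ndufs8 (-0.35), Ndufb6 (-0.35), Ndufs4 (-0.26), Ndufa4 (-0.45), Ndufs7 (-0.18), Ndufs1 (-0.29), Ndufc2 (-0.088), Ndufs3 (-0.049), Ndufs5 (-0.10), Ndufa8 (-0.49) and Ndufaf1 (-0.076). In dKO against WT they changed without both for Ndufv1 (-0.13), Ndufv2 (-0.039), Ndufa4 (-0.14), Ndufs1 (-0.028), Ndufa8 (-0.14) and Ndufaf3 (-0.15), and with the lymphocyte covariate for Ndufv1 (-0.016), Ndufa4 (-0.041), Ndufa8 (-0.044) and Ndufaf3 (-0.11).

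With single libraries left out, signs in dKO against KO changed within the ranges of Ndufaf4 (-0.38 to 0.030), Ndufv1 (-0.33 to 0.040), Ndufs8 (-0.20 to 0.22), Ndufab1 (-0.24 to 0.070), Ndufv2 (-0.28 to 0.028), Ndufs4 (-0.014 to 0.28), Ndufa4 (-0.12 to 0.24), Ndufs1 (-0.012 to 0.34), Ppargc1a (-0.30 to 0.025) and Stk11 (-0.035 to 0.16). In dKO against WT this was so for Ndufaf3 (-0.046 to 0.26).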

Other observations

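Other nuclear genes of the respiratory chain had fold changes in the range of the Nduf genes, and edgeR called none of them with all libraries. In KO against WT the median log2 fold change was 0.51 for 13 genes of complexes II and III (an unadjusted p under 0.05 for 5), 0.40 for 10 of complex IV (1) and 0.36 for 15 of complex V (2), the ATP synthase. Without dKO libraries 4 and 5 these medians were 0.50, 0.38 and 0.35. Of these lists 4, 1 and 1 genes then rose in KO by edgeR, where 2.14% of all tested genes were called. In dKO against KO these medians were 0.17, 0.16 and 0.19 (an unadjusted p under 0.05 for 0, 0 and 2), and without dKO libraries 4 and 5 they were -0.55, -0.53 and -0.48. In dKO against WT they were 0.65, 0.58 and 0.60 (8, 3 and 9), and without dKO libraries 4 and 5 they were 0.060, -0.19 and -0.067. DESeq2 called 1 gene of complex V in dKO against WT and voom called 1 of complexes II and III in KO against WT, and both called 0 in the other comparisons of these lists.

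The 13 complex I assembly factors with other names had a median log2 fold change of 0.13 in KO against WT and 0.13 in dKO against KO. Without dKO libraries 4 and 5 the second of these was -0.06. edgeR, DESeq2 and voom called 0 of them, with an unadjusted edgeR p under 0.05 for 2 in KO against WT and 0 in dKO against KO.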
